A study of Mus musculus with 8 samples.

Results

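The miR-23/27/24 microRNAs (miRNAs) come from a pair of paralogous clusters, and the members examined here were the main mature arms of those clusters. Of 5 listed names, 3 had a row of the miRNA class in the count table and were analysed, namely mmu-miR-24-3p, mmu-miR-27a-3p and mmu-miR-27b-3p (written below without the species prefix). miR-23a-3p and miR-23b-3p were not analysed here. The table holds 1010917 rows, 952 of them of the miRNA class. The filter on low counts kept 10234 features of all classes, 228 of them of the miRNA class. All 3 members passed, and none was listed at 0 in any library.

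The libraries were small RNA from spermatozoa of C57BL/6J mice, 4 labelled EtOH-Cessation and 4 labelled Control-Cessation. Per the series title, sperm were taken a month after alcohol had stopped. The comparison asks whether sperm small RNAs of alcohol-treated animals still differed then. The labels give no dose, age or batch. They do not say whether a library came from 1 animal or several, and the p-values therefore speak only of how these libraries varied, which may be technical. The design text of the series names caput tissue of the epididymis, while every sample is labelled mature sperm. Messenger RNA fragments of 10 of 10 sperm transcripts were present, led by Smcp, which encodes a protein of the sperm mitochondrial capsule. They summed to between 290 and 484 CPM in EtOH libraries and between 582 and 718 CPM in controls.

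A miRNA is cut from a hairpin precursor and guides the silencing complex to messenger RNAs that match its seed, bases 2 to 8 from the 5′ end. Each cluster is transcribed as a shared precursor that carries a miR-23, a miR-27 and a miR-24 hairpin. miR-27 is known to repress the adipocyte factor Pparg and, with miR-23, inhibitors of blood vessel growth such as Spry2. miR-24 is known to repress the pro-death gene Bcl2l11 and the histone variant gene H2afx. These miRNAs are well known from muscle, endothelium and connective tissue.

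The mature sequences decide what the counts can separate, so they are shown first, from RefSeq (GRCm38.p6), with the seed in capitals.
miR-24-3p: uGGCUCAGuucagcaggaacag
miR-27a-3p: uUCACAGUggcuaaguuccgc
miR-27b-3p: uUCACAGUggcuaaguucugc
miR-128-3p: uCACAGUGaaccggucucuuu
miR-27a-3p and miR-27b-3p have the same seed and 20 of 21 bases in common. They differ by C19U, counted from 1 at the 5′ end of miR-27a-3p, so a read that ends before base 19 fits both. No other mature miRNA in the RefSeq table carries that seed. The seed of miR-24-3p occurs in 5 mature miRNAs of the RefSeq table, and miR-24-3p was the only one of them with a row here. miR-128-3p is shown because its seed is that of miR-27 moved by 1 base.

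The hairpins show where the members arise, with the mature arm in capitals.
Mir27a: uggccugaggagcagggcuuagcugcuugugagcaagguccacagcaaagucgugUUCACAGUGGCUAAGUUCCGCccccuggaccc
Mir24-2: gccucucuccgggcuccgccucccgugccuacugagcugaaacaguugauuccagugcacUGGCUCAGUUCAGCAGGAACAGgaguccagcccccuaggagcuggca
Mir27b: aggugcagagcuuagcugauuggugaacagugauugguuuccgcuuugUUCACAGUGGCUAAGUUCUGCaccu
Mir24-1: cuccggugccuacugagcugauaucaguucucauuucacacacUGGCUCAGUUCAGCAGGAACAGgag
Mir27a lies at chr8:84208672-84208758 and Mir24-2 at chr8:84208815-84208921, both on the plus strand of GRCm38.p6 and 56 bases apart. No longer gene of GENCODE release M21 spans either. Mir27b lies at chr13:63300712-63300784 and Mir24-1 at chr13:63301208-63301275, on the plus strand and 423 bases apart. Both are inside the protein-coding gene 2010111I01Rik on its own strand, also called Aopep, which encodes an aminopeptidase. Mir27b is intronic in 8 of the 9 transcripts that span it, and Mir24-1 in 7 of 8. The gene Fancc spans both from the opposite strand. The mature miR-24-3p is the same in both hairpins, so its counts cannot be assigned to either locus, and how reads matching both were counted is not known, while miR-27a-3p and miR-27b-3p stand for the loci on chromosomes 8 and 13.

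All 3 members had lower mean levels in the EtOH libraries, and none passed the adjusted threshold by the edgeR test. Levels are given as CPM, the counts per 1000000 counts of the scaled library size. mmu-miR-24-3p had 89.1, 76.9, 96.6 and 68.3 CPM in EtOH replicates 1 to 4, against 140, 867, 248 and 190 CPM in control replicates 1 to 4. Every EtOH library lay below every control, and control replicate 2 stood far above the other controls. The means were 82.7 ± 12.6 CPM in EtOH libraries and 361 ± 340 CPM in controls (SD, n = 4 each), a log2 fold change of -2.13 (SE 0.55, edgeR quasi-likelihood adjusted p = 0.0525).

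mmu-miR-27b-3p had 48.2, 34.5, 55.4 and 46.3 CPM in EtOH replicates 1 to 4, against 62.0, 346, 93.3 and 104 CPM in control replicates 1 to 4. Its groups did not overlap either, with the lowest control 1.12 times the highest EtOH library. The means were 46.1 ± 8.67 CPM in EtOH libraries and 151 ± 131 CPM in controls (SD, n = 4 each), with a log2 fold change of -1.71 (SE 0.53, edgeR adjusted p = 0.0661).

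mmu-miR-27a-3p, the least abundant member, had 13.3, 7.57, 18.0 and 8.10 CPM in EtOH replicates 1 to 4, against 17.1, 114, 11.5 and 19.6 CPM in control replicates 1 to 4. Here the groups overlapped, and 2 of 4 EtOH libraries lay above the lowest control. The means were 11.7 ± 4.91 CPM in EtOH libraries and 40.5 ± 48.9 CPM in controls (SD, n = 4 each), with a log2 fold change of -1.77 (SE 0.68, edgeR adjusted p = 0.119).

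**Figure D1:**
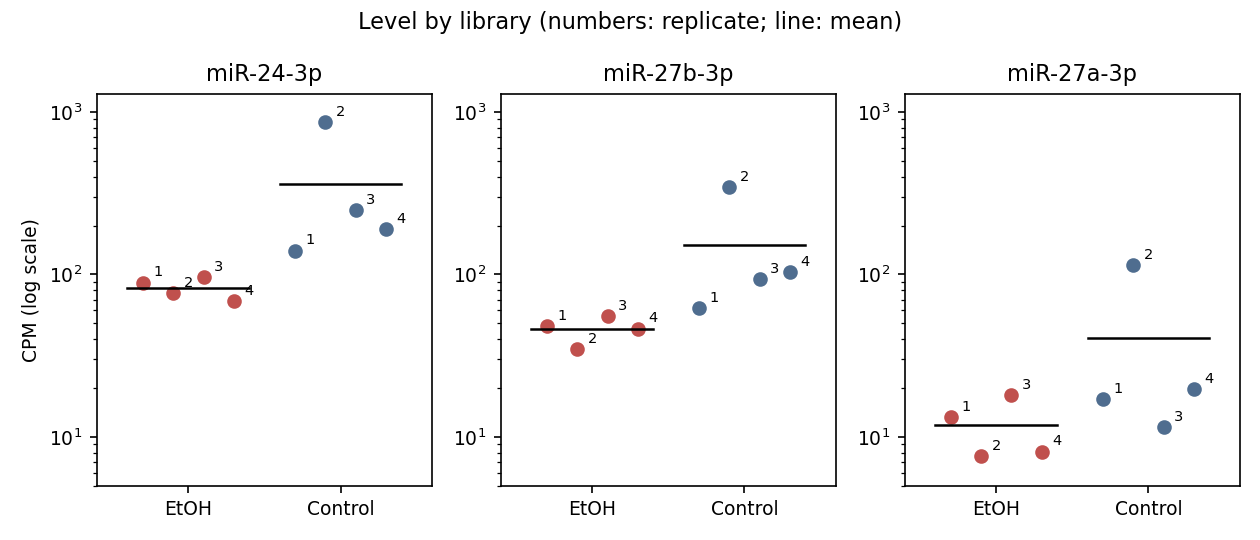
CPM of miR-24-3p, miR-27b-3p and miR-27a-3p in each library (log axis), EtOH libraries in red and controls in blue, with the replicate number beside each point and the group mean as a line. Control replicate 2 is the highest point in each panel, at 867, 346 and 114 CPM, and only for miR-27a-3p do the groups overlap.

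The members' fold changes lay within the range of the miRNA class, which as a whole had lower values in the EtOH libraries. By the adjusted edgeR test 0 of 3 members were lower, where 0.137% of all features and 0.439% of miRNA features were. At an unadjusted p below 0.05 it was 3 of 3, where 9.15% of all features and 66.7% of miRNA features were lower. The groups did not overlap for 2 of 3 members, as for 7.81% of all features and 48.7% of miRNA features. With DESeq2, 2 of 3 members passed, miR-24-3p (adjusted p = 0.00226) and miR-27b-3p (adjusted p = 0.0154), as did 3.95% of all features and 51.3% of miRNA features in that direction. With limma voom 0 of 3 passed, where 2.34% of all features and 32.5% of miRNA features were lower. Over the 228 miRNA features, the median of the log2 fold changes was -1.56, and over all features it was -0.09. miR-24-3p lay 0.57 log2 units below the miRNA median, miR-27a-3p 0.22 below and miR-27b-3p 0.15 below, and 14.0%, 33.3% and 39.0% of miRNA features had lower fitted values than each. When the miRNA class was fitted alone, the log2 fold changes were -0.44 (SE 0.40) for miR-24-3p, -0.09 (SE 0.53) for miR-27a-3p and -0.08 (SE 0.37) for miR-27b-3p (edgeR adjusted p = 0.769, 0.981 and 0.981). In that edgeR fit 0 of 3 members and 0% of 241 miRNA features were lower past the threshold, and 5 features were lower at an unadjusted p below 0.05.

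**Figure D2:**
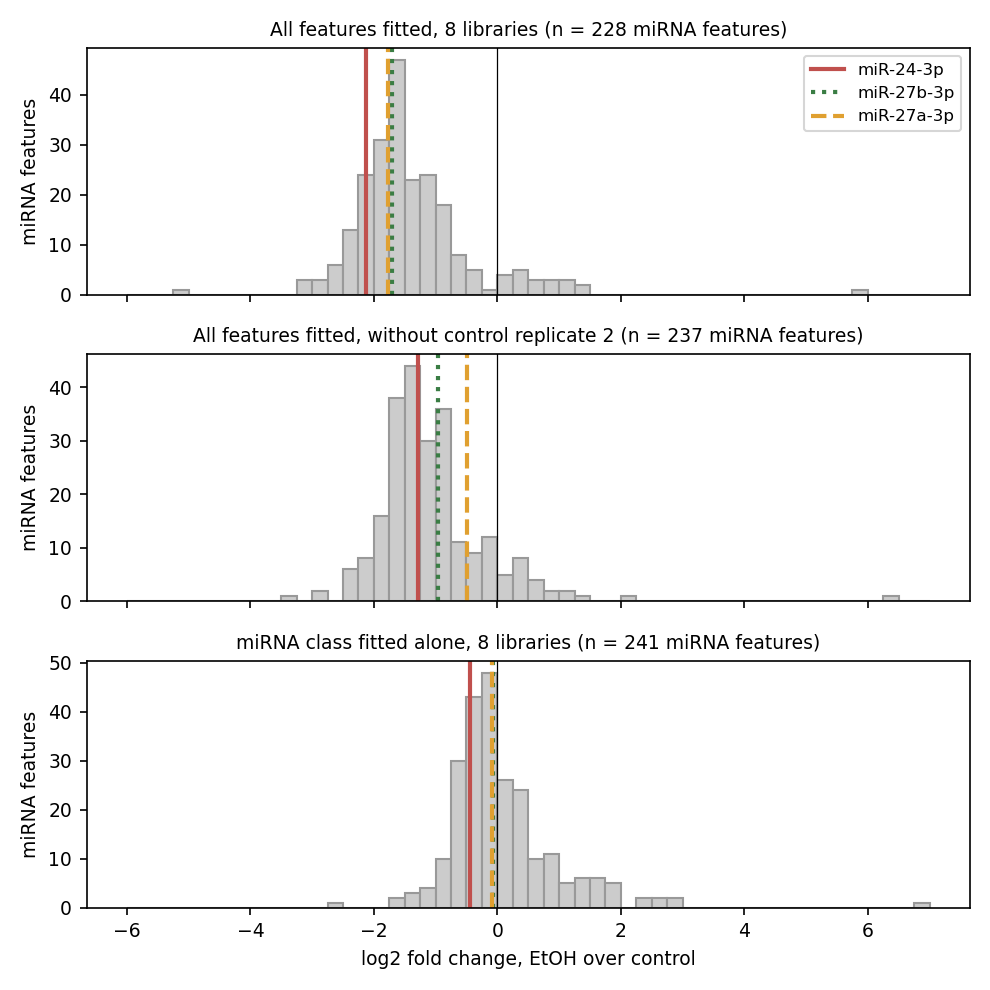
Histograms of the edgeR log2 fold change (EtOH over control) of tested miRNA features, with the members as coloured lines, for the fit of all features (top), the same without control replicate 2 (middle) and the miRNA class fitted alone (bottom). The members lie within the range of the class in each panel, and miR-27a-3p is at -0.50 without control replicate 2, against -1.77 with all libraries.

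The share of each member within the miRNA counts needs no library scaling. miR-24-3p made up 9.68 ± 1.37 per 10000 miRNA counts in EtOH libraries and 13.0 ± 7.79 in controls (SD, n = 4 each; two-sided exact permutation p = 0.6). miR-27a-3p made up 1.31 ± 0.294 in EtOH libraries and 1.38 ± 1.22 in controls (exact permutation p = 1), and miR-27b-3p 5.35 ± 0.511 in EtOH libraries and 5.54 ± 2.93 in controls (SD, n = 4 each; exact permutation p = 0.943). Each difference was smaller than the SD of the controls. The class itself held 6.96% to 10.1% of the counts in EtOH libraries and 16.8% to 27.7% in controls, with the highest share in control replicate 2.

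**Figure D3:**
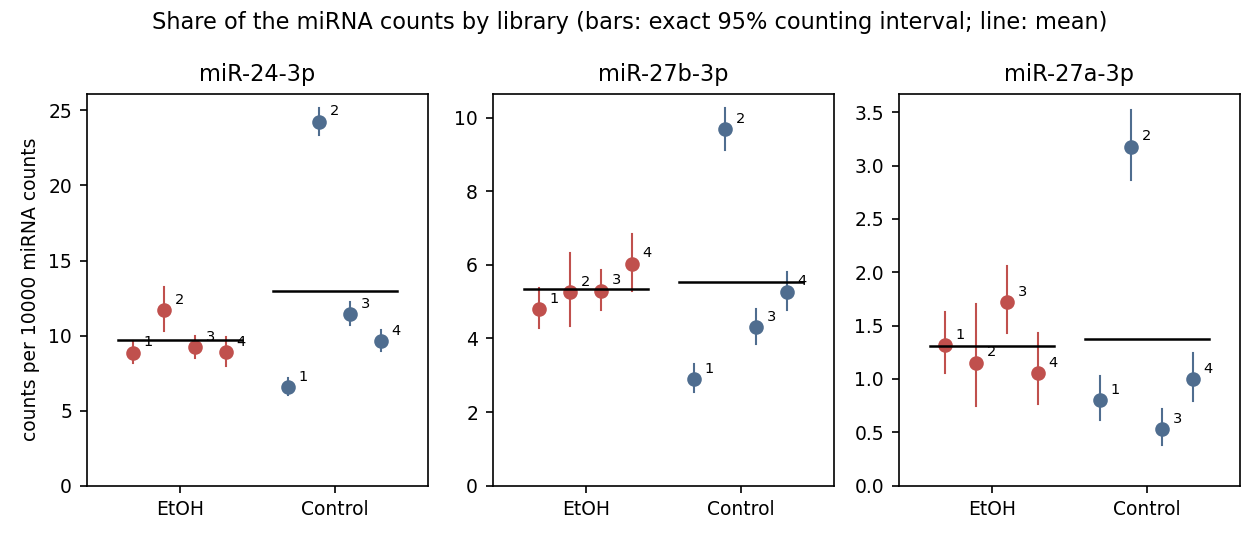
Counts of each member per 10000 miRNA counts in each library, with exact 95% counting intervals and the group mean as a line. Control replicate 2 is highest in each panel (24.3, 9.69 and 3.18 for miR-24-3p, miR-27b-3p and miR-27a-3p), and its interval does not reach the next library.

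Control replicate 2 was the highest control for each member. Relative to the mean of the other controls it was 4.50 times as high for miR-24-3p, 4.01 times for miR-27b-3p and 7.06 times for miR-27a-3p. The median of 156 mature miRNAs with counts in every library was 2.05 times, and the members ranked 21, 26 and 8 from the top. Without this library the control means were 193 ± 53.9 CPM for miR-24-3p, 86.3 ± 21.7 for miR-27b-3p and 16.1 ± 4.16 for miR-27a-3p (SD, n = 3 each). The log2 fold changes were then -1.29 (SE 0.44), -0.96 (SE 0.45) and -0.50 (SE 0.50), with edgeR adjusted p of 0.107, 0.202 and 0.582. Then 0 of 3 members were lower past the threshold, where 0.0711% of all features and 0% of miRNA features were. The median of the miRNA features in that fit was -1.24. The share of the miRNA counts was higher in EtOH libraries for all 3 members without it. The EtOH share of miR-27a-3p lay above the highest of the 3 remaining controls, 0.999 per 10000, in 4 of 4 libraries. The exact permutation p was 0.0571, the smallest that 4 against 3 allow, and the control mean was 0.778 ± 0.235 (SD, n = 3). The library left out was singled out for its height in these same values. How many miRNA features separate in this way was not counted, so the separation cannot be called particular to miR-27a-3p. With all controls its shares overlapped, at 1.06 to 1.72 per 10000 in EtOH libraries and 0.532 to 3.18 in controls. miR-27a-3p had 65, 41 and 80 counts in control replicates 1, 3 and 4 and 25 in EtOH replicate 2. For miR-27b-3p the control mean was then 4.16 ± 1.19 and for miR-24-3p 9.22 ± 2.47 (SD, n = 3 each; exact permutation p = 0.171 and 0.857).

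Leaving out an EtOH library moved the calls as well. Without EtOH replicate 3, 2 of 3 members fell past the edgeR threshold, where 3.63% of all features and 58.2% of miRNA features were lower. These were miR-24-3p (log2 fold change -2.30, adjusted p = 0.0197) and miR-27b-3p (-1.90, adjusted p = 0.0354). Without EtOH replicate 2, miR-24-3p passed (-1.95, edgeR adjusted p = 0.0440), which is 1 of 3 members where 1.83% of all features and 26.9% of miRNA features were lower. The EtOH libraries carry identifiers that begin with M (replicates 1 and 2) or EM (replicates 3 and 4), and the labels do not say what this means. With the M libraries alone against all controls, miR-24-3p passed (-2.28, edgeR adjusted p = 0.0427), 1 of 3 members where 2.69% of all features and 38.8% of miRNA features were lower. With the EM libraries alone 0 of 3 members passed, where 7 of 12393 features and 0 of 270 miRNA features were lower past the threshold. The log2 fold changes were then -1.92, -1.38 and -1.39 for miR-24-3p, miR-27b-3p and miR-27a-3p (edgeR adjusted p = 0.173, 0.280 and 0.429).

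Of the marker lists, the smooth muscle, striated muscle and endothelial sums stood highest in control replicate 2 against the other controls. The smooth muscle miRNAs, 3 of 4 with a row and led by miR-143-3p, summed to between 1473 and 3796 CPM in EtOH libraries and between 2017 and 8112 CPM in controls without replicate 2, which had 43068 CPM. The striated muscle miRNAs, 6 of 7 with a row and led by miR-1a-3p, summed to between 149 and 416 CPM in EtOH libraries and between 387 and 1320 CPM in those controls, with 4371 CPM in control replicate 2. Of those that passed the filter, miR-1a-3p was 5.76 times the mean of the other controls there, miR-133a-3p 4.03 times and miR-499-5p 2.74 times. The endothelial miRNAs, 4 of 4 and led by miR-221-3p, had 75.2 to 103 CPM in EtOH libraries, 99.4 to 203 CPM in those controls and 502 CPM in control replicate 2. Most of that sum was miR-221-3p, at 363 CPM there and 7.59 times the mean of the other controls, while miR-126a-3p, the defining endothelial miRNA, was at 87.6 CPM there, below 98.3 CPM in control replicate 3 and 1.33 times that mean. miR-208a-3p, a heart muscle miRNA, was listed at 0 in EtOH replicates 1 to 4 and control replicate 1. Its highest value was only 1.53 CPM, in control replicate 2. miR-208b-3p of the same list had 0.156, 0.606 and 0.151 CPM in EtOH replicates 1 to 3. It was listed at 0 in EtOH replicate 4 and control replicate 3, and had 3.06 CPM in control replicate 2. As sums, the smooth muscle, striated muscle and endothelial lists were 8.08, 5.20 and 3.68 times as high there as in the mean of the other controls.

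As sums, the remaining lists were at most 1.59 times as high in that library as in the mean of the other controls. The red blood cell miRNAs, 5 of 5 and led by miR-451a, ranged from 58.8 to 140 CPM in EtOH libraries and from 124 to 1268 CPM in controls, with the highest value in control replicate 4. The germ cell miRNAs, 12 of 12 and led by miR-34c-5p, ranged from 2474 to 7085 CPM in EtOH libraries and from 8538 to 14727 CPM in controls, with control replicate 2 at 1.52 times the other controls. Single members ran from 0 times (miR-449a-5p) to 2.86 times (miR-881-3p) and 15.6 times (miR-471-5p, listed at 0 in control replicates 1 and 4). The leukocyte miRNAs, 4 of 5, ranged from 24.5 to 144 CPM in EtOH libraries and from 247 to 365 CPM in controls. Their most abundant member, miR-142a-5p, was listed at 0 in EtOH replicates 1 and 2 and control replicate 2. The other 3 were high in control replicate 2, with miR-150-5p at 4.61 times the mean of the other controls, miR-223-3p at 3.65 times and miR-155-5p at 2.93 times. The epithelial miRNAs, 4 of 5 and led by miR-200b-3p, ranged from 1185 to 2977 CPM in EtOH libraries and from 1325 to 5315 CPM in controls. In control replicate 2 their members ran from 0.639 times the mean of the other controls (miR-200b-3p) to 2.49 times (miR-141-3p). miR-141-3p was listed at 0 in control replicates 1 and 4. Fragments of epididymal epithelium transcripts, 9 of 9 and led by Crisp1, ranged from 728 to 16635 CPM in EtOH libraries, highest in replicate 2, and from 409 to 598 CPM in controls. Of 12 exon features tested for them, 12 were higher at an unadjusted edgeR p below 0.05, where 17.9% of all features were, and 0 passed the adjusted threshold. These features were 8 of Crisp1, 2 of Cd52 and 2 of Adam7, and the other 6 transcripts had none that passed the filter. No listed marker with a row was at 0 in every library. Fewer cells of a type and less RNA per cell cannot be told apart in these samples, and the part of any of these cell types in the members' values was not tested.

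**Figure D4:**
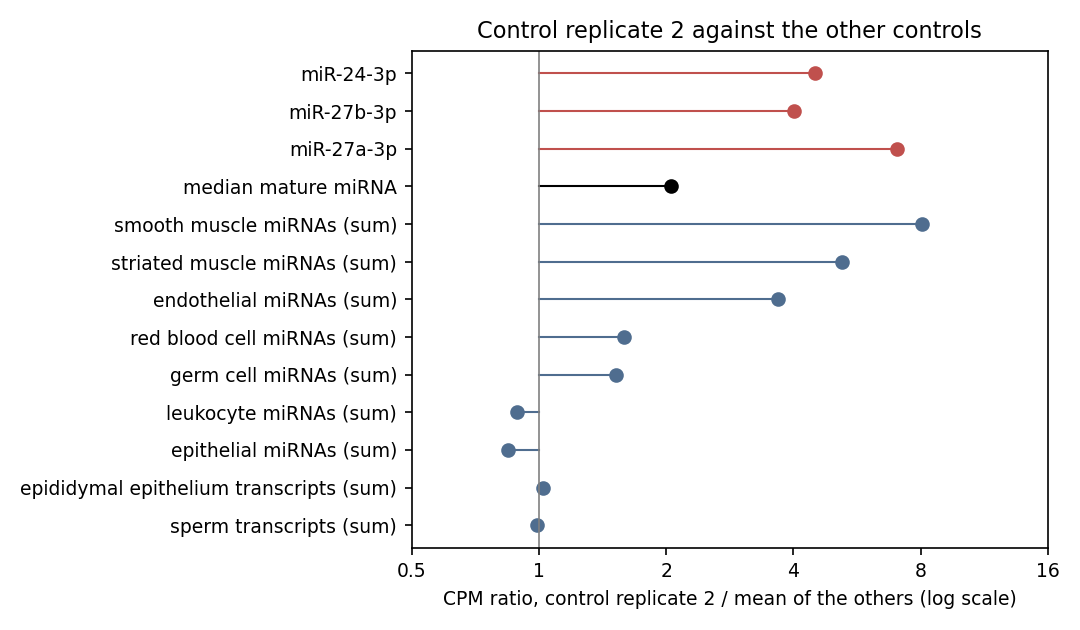
CPM of control replicate 2 divided by the mean CPM of the other 3 controls (log axis) for the members (red), the median mature miRNA (black) and the summed marker lists (blue). The members, at 4.01 to 7.06, lie within the range of the muscle and endothelial lists (3.68 to 8.08). The median mature miRNA is at 2.05, the germ cell miRNA list at 1.52 and the epithelial miRNA list at 0.847. Sperm and epididymal transcripts, at 0.989 and 1.02, are messenger RNA fragments and so of another class than the members. The endothelial sum is mostly miR-221-3p, and the leukocyte sum holds miR-142a-5p, listed at 0 in control replicate 2.

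The order of the members was the same in 8 of 8 libraries, with miR-24-3p highest and miR-27a-3p lowest. Their mature lengths are 22, 21 and 21 bases, and the count of miR-24-3p joins 2 loci. The order is one of counts, and whether equal counts of different miRNAs mean equal amounts was not tested. miR-24-3p was 1.48 to 2.23 times miR-27b-3p in EtOH libraries and 1.83 to 2.66 times in controls. miR-27b-3p was 3.08 to 5.71 times miR-27a-3p in EtOH libraries and 3.05 to 8.10 times in controls. Across libraries the ranges of neighbours in the order overlapped only in part, since the highest EtOH value of miR-27b-3p, 55.4 CPM, lay below the lowest of miR-24-3p, 68.3 CPM, while among controls 346 CPM for miR-27b-3p exceeded 140 CPM for miR-24-3p. By mean CPM the members ranked 73, 89 and 135 among the rows of the miRNA class in EtOH libraries and 60, 86 and 127 in controls, for miR-24-3p, miR-27b-3p and miR-27a-3p in turn.

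Ratios between members need no library scaling. The ratio of miR-27a-3p to miR-27b-3p, the chromosome 8 copy over the chromosome 13 copy, was 0.275, 0.219, 0.325 and 0.175 in EtOH replicates 1 to 4, against 0.277, 0.328, 0.123 and 0.190 in control replicates 1 to 4. Reads that fit both copies may enter either count. The groups overlapped, and the mean log2 difference was 0.18 (two-sided exact permutation p = 0.743, adjusted p = 0.743 over 2 ratios). Counting error was wide for the lowest library by depth, EtOH replicate 2, where 25 and 114 counts gave an exact 95% interval of 0.136 to 0.340. Control replicate 3, at 0.123 (interval 0.0870 to 0.171), had the lowest ratio. Control replicate 2, which was highest in level, had the highest ratio, next to EtOH replicate 3.

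The ratio of miR-24-3p to both miR-27 copies together was 1.45, 1.83, 1.32 and 1.26 in EtOH replicates 1 to 4, against 1.77, 1.89, 2.36 and 1.54 in control replicates 1 to 4. Of the EtOH libraries, only replicate 2 lay above the lowest control. The mean log2 ratio was 0.53 ± 0.24 in EtOH libraries and 0.90 ± 0.26 in controls (SD, n = 4 each), a difference of -0.37 that did not pass (exact permutation p = 0.0857, adjusted p = 0.171 over 2 ratios). This ratio was not planned and stands in for ratios that held miR-23.

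**Figure D5:**
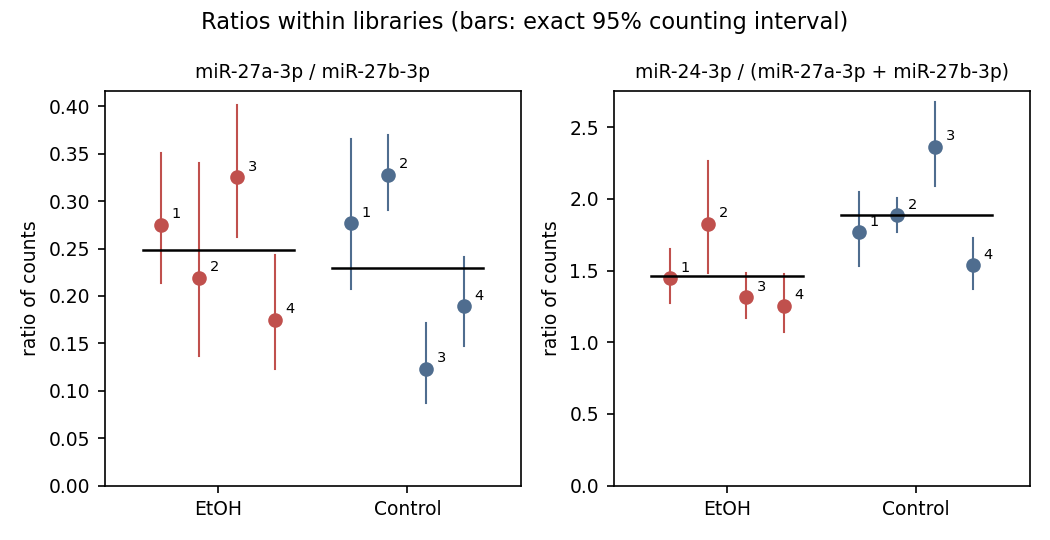
Ratio of counts within each library for miR-27a-3p over miR-27b-3p (left) and miR-24-3p over both miR-27 miRNAs (right), with exact 95% counting intervals and the group mean as a line. The left ratios overlap between groups, and on the right EtOH replicates 1, 3 and 4 (1.26 to 1.45) lie below all controls (1.54 to 2.36).

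Almost all reads of the clusters came from the 3p arms. Over the 8 libraries miR-27b-5p had 3 counts beside 3149 for miR-27b-3p, or 0.0952% of both arms (exact 95% interval 0.0196% to 0.278%). miR-27a-5p had 10 counts beside 271 for miR-27a-3p in EtOH libraries, or 3.56% (exact 95% interval 1.72% to 6.45%), and 2 beside 557 in controls, or 0.358% (0.0434% to 1.29%). These counts are pooled over libraries, and that difference was not tested over libraries. miR-27b-5p went the other way, with 0 counts in EtOH libraries and 3 in controls. miR-24-2-5p, the passenger arm of the chromosome 8 hairpin, had 0 counts in EtOH libraries and 2 in controls, beside 6835 for miR-24-3p over all libraries. miR-24-1-5p was not analysed here, so the 5p arms do not tell which locus gave miR-24-3p. Of 9 passenger and antisense names listed for the clusters, 7 had a row and 0 passed the filter, with 32 counts in EtOH libraries and 42 in controls. The rows of the hairpin class, reads that match a precursor, numbered 6 of 8 names with 31 counts in EtOH libraries and 30 in controls. Rows under precursor names in the miRNA class, also 6 of 8, had 12 counts in EtOH libraries and 7 in controls.

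The largest of the minor rows was miR-3074-5p, whose reverse complement matches miR-24-3p over 20 of 20 overlapping bases. It had 7, 2, 2 and 7 counts in EtOH replicates 1 to 4, against 7, 6, 3 and 15 in control replicates 1 to 4. The groups overlapped. miR-27a-5p had 2, 0, 4 and 4 counts in EtOH replicates 1 to 4 against 0, 1, 0 and 1 in control replicates 1 to 4. miR-23a-5p had 3 counts in EtOH libraries and 0 in controls, and miR-23b-5p had 1 in EtOH libraries and 3 in controls. None of these rows passed the filter. With no filter, 0 of 19 arm and precursor rows passed the adjusted edgeR threshold (lowest adjusted p = 0.413), where 1642 of 867194 features did. At an unadjusted edgeR p below 0.05, 1 was lower, where 11588 of all features and 246 of 948 miRNA features were. It was the hairpin class row of mir-23a, with 1 count in EtOH libraries and 9 in controls, 5 of them in control replicate 2.

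The miRNAs most like the members were found by the root mean square difference of centred log2 CPM over the 8 libraries, among 86 mature miRNAs. miR-21a-5p, an abundant miRNA of many tissues, was nearest to all 3, at 0.24 log2 units from miR-24-3p, 0.40 from miR-27a-3p and 0.27 from miR-27b-3p. It had 1970, 1724, 3147 and 1523 CPM in EtOH replicates 1 to 4, against 3249, 17030, 4537 and 3582 CPM in control replicates 1 to 4. The second nearest were miR-26b-5p for miR-24-3p (0.33), miR-195a-5p for miR-27a-3p (0.40) and miR-26a-5p for miR-27b-3p (0.31). The median distance over the 86 was 0.68, 0.79 and 0.64 for miR-24-3p, miR-27a-3p and miR-27b-3p. Among the members, miR-24-3p and miR-27b-3p were 0.27 apart, miR-27a-3p and miR-27b-3p 0.43, and miR-24-3p and miR-27a-3p 0.54. The libraries share depth and the class shift, and control replicate 2 is the highest library for each of these miRNAs.

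miR-128-3p, with the seed shifted by 1 base, was more abundant, at 264 ± 88.2 CPM in EtOH libraries and 703 ± 213 CPM in controls (SD, n = 4 each). Its log2 fold change was -1.42 (SE 0.39, edgeR adjusted p = 0.0541). In control replicate 2 it was 1.61 times the mean of the other controls.

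The host gene of the chromosome 13 cluster gave few fragments. Exons of 2010111I01Rik summed to 14.2 ± 4.08 CPM in EtOH libraries and 11.0 ± 4.07 CPM in controls (SD, n = 4 each), and 0 of 1 tested exon feature passed (edgeR adjusted p = 0.628). Its introns summed to 12.2 ± 1.32 CPM in EtOH libraries, against 16.8 ± 1.80 CPM in controls (SD, n = 4 each), and 0 of 2 tested intron features passed. The summed intron values of the groups did not overlap, with the highest EtOH library at 13.5 CPM and the lowest control at 15.03 CPM. Of all single features tested, 7.81% had every EtOH library below every control. The sum covers 14 intron rows, and 0 of the 2 tested were at an unadjusted edgeR p below 0.05. Control replicate 2 was the highest control for both, with 19.3 CPM for introns and 15.6 CPM for exons.

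Published targets were sparse among the exon fragments. Of 12 target symbols listed, 11 had exon rows, which cover all genes listed because H2afx and H2ax are names of the same gene, and 4 exon features of 3 genes were tested. None passed the adjusted edgeR test. At an unadjusted edgeR p below 0.05, 1 of these 4 was higher in EtOH libraries and 0 were lower, where 17.9% and 9.15% of all features were. Their median log2 fold change was -0.11. The exon of H2afx, a known target of miR-24, had 4.13 ± 2.93 CPM in EtOH libraries and 1.73 ± 0.734 CPM in controls (SD, n = 4 each; edgeR adjusted p = 0.159). For Bcl2l11, also a known target of miR-24, the tested exon features had 1.54 ± 1.39 and 4.37 ± 2.22 CPM in EtOH libraries, against 3.25 ± 0.292 and 6.16 ± 1.53 CPM in controls (SD, n = 4 each; edgeR adjusted p = 0.293 and 0.533). Runx1, a transcription factor gene of blood formation and a known target of miR-27a, had 22.1 ± 8.03 CPM in EtOH libraries and 18.5 ± 2.94 CPM in controls (SD, n = 4 each; edgeR adjusted p = 0.745). Small RNA fragments of an exon are not a measure of the messenger RNA level, so these values only say what was in the libraries.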

How the data were processed

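The deposited values are whole-number counts per annotated feature with no normalization, as the values show, made by the authors from the first read of each pair, per the labels, after trimming with cutadapt, per the submitters' processing notes. For the aligner, build, annotation and multi-mapping reads, the labels and headers name nothing. Library totals were 3116421 to 6805989 counts in EtOH libraries and 4210785 to 4768713 in controls. No molecular identifiers are mentioned in the labels, so intervals describe counting error and nothing else.

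Columns were matched to samples by the identifier in the title, groups come from the treatment label, and replicate numbers follow accession order. Features were filtered with filterByExpr (minimum count 10, minimum total 15). Scaling used trimmed means of M values, and the test was edgeR's quasi-likelihood F test (edgeR 4.0.16, R 4.3.3). P-values were adjusted over all 10234 features by the Benjamini-Hochberg method, with 0.05 as the threshold. Library sizes were summed over the features kept. They were first summed over all features, and this was changed after the values had been seen, so both versions are given under the dependence on processing. SE is the log2 fold change divided by the root of F. CPM uses the scaled sizes for every feature and sum. Shares and ratios (0.5 added to each count for log2 ratios) were compared by exact permutation over 70 splits with scipy 1.17.1, where the smallest p is 0.02857. Other settings used DESeq2 1.42.0, limma 3.58.1, other scalings and left-out libraries. The edgeR step was checked on simulated data with 200 of 10234 features changed. It recovered 8% of 2-fold, 52% of 4-fold and 98% of 8-fold changes, with 3 false calls. Changes of up to 4 fold were thus often missed.

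Members and lists were chosen with earlier results of these data known. Named were the members, the cluster rows, the host gene, the 2 nearest miRNAs per member (among tested mature miRNAs with a mean of at least 50 CPM and no library at 0, on log2 of CPM plus 1) and the leading gene of each list. miR-128-3p, miR-208a-3p, further list members, the target exons and the miRNAs of the closing section were named after their values were seen. Sequences are from RefSeq, where 3 of 3 analysed members matched by name.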

Additional observations from a re-analysis of the deposited data

Results flagged for a closer look

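Among 16 groups of 4 values examined for a library far from the rest, 4 were marked by Dixon's test. A rate of about 1 in 20 by chance holds for independent, normally distributed values. Here the values were not taken as logarithms and the groups share libraries, so the count of marks cannot be set against that rate. Control replicate 2 was marked for the level of all 3 members, at 867 CPM for miR-24-3p, 346 CPM for miR-27b-3p and 114 CPM for miR-27a-3p, with a gap of 0.852, 0.854 and 0.920 of the group's range, above Dixon's critical value for 4 samples. The 3 marks share 1 library. EtOH replicate 2 was marked for miR-24-3p within the miRNA counts, at 11.7 per 10000, with the other EtOH libraries at 8.86 to 9.24 (gap 0.869). It has the fewest miRNA counts of the 8 libraries, 216907.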

How the results depend on the processing

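No paired analysis was possible because the labels give the libraries no shared replicate numbers. The planned ratios with miR-23 were not run. The ratio of miR-24-3p to both miR-27 took their place, so the adjustment covers fewer ratios than planned. No passenger arm or hairpin row passed the filter in any setting that used one, so their fits exist with no filter alone, where 0 of 19 passed. Every setting gave each member a negative log2 fold change except the miRNA class fitted alone without control replicate 2, a setting added after the data were seen, with 0.68 for miR-27a-3p (edgeR adjusted p = 0.516), 0.29 for miR-27b-3p (0.893) and -0.004 for miR-24-3p. miR-24-3p passed the threshold with DESeq2 (-1.99, adjusted p = 0.00226) and with M identifiers alone (-2.28, edgeR adjusted p = 0.0427), and miR-27b-3p with DESeq2 (-1.59, 0.0154). Over all settings the adjusted p ran from 0.00226 to 0.999 for miR-24-3p, 0.0154 to 0.995 for miR-27b-3p and 0.0538 to 0.996 for miR-27a-3p. Leaving out 1 library gave -2.40 to -1.29, -1.91 to -0.96 and -2.15 to -0.50 for miR-24-3p, miR-27b-3p and miR-27a-3p, the value nearest 0 of each without control replicate 2. With features at 0 in any library taken out of the miRNA total, the share differences of miR-27a-3p and miR-27b-3p turned to 0.0466 and 0.0833 per 10000. With 1 library left out they ran from -5.44 to 0.462 (miR-24-3p), -1.07 to 1.19 (miR-27b-3p) and -0.347 to 0.535 per 10000 (miR-27a-3p), positive for all 3 without control replicate 2, and for miR-27a-3p also without EtOH replicate 4 (0.0205). The log2 ratio difference of miR-27a-3p to miR-27b-3p ran from -0.0867 (without control replicate 3) to 0.378, and that of miR-24-3p to both miR-27 from -0.481 to -0.255.

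The count of all features past the threshold was 19, and 9 with median-of-ratios factors, 9 with library size alone, 1 with piRNA cluster totals, 1642 with no filter, 1747 with DESeq2, 655 with limma voom and 2572 with M identifiers alone. For miRNA features it was 2, and 1, 1, 0, 32, 118, 75 and 103 under those settings in turn, with 1 for EM identifiers alone and 1 for the class fitted alone. With 1 library left out, 3 (without EtOH replicate 4) to 2332 features (without EtOH replicate 3) and 1 to 140 miRNA features passed. It was 346 without EtOH replicate 1, 487 without EtOH replicate 2, and 8, 10 and 8 without control replicates 1, 2 and 3. Library sizes summed over all features, the first choice, gave the same 19 and 2 counts, but 818 features and 48 miRNA features with library size alone, and 601 and 74 without EtOH replicate 2. No call on a member differed between the 2 ways of summing. Library size alone and piRNA cluster totals gave medians of 0.18 and 0.15 over all features, against -0.09. Relative to the miRNA median the members then lay at -0.51 and -0.60 (miR-24-3p), -0.12 and -0.19 (miR-27b-3p), and -0.18 and -0.44 (miR-27a-3p). The causes were not tested. Depth limits miR-27a-3p most, with 25 counts in EtOH replicate 2.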

Other observations

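Among the 156 tested mature miRNAs with counts in every library, those that stood highest in control replicate 2 were looked up after the values were seen. miR-199a-5p, a miRNA of connective tissue, was 16.9 times the mean of the other controls, miR-145a-5p of smooth muscle 12.6 times, let-7e-5p 9.44 times and miR-199a-3p 9.19 times. They were followed by miR-122-5p, known from liver, at 7.88 times, miR-221-3p at 7.59 and miR-143-3p at 7.22, and then by miR-27a-3p at 7.06 times. Outside that set, miR-145a-3p, listed at 0 in 4 libraries, had 180 CPM in control replicate 2, against 0, 0 and 10.8 CPM in control replicates 1, 3 and 4.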
